A study of Mus musculus with 6 samples.

Results

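Transcripts of 7 genes that let group 2 innate lymphoid cells (ILC2s) take part in signalling with nerves were measured in lung ILC2s cultured with TNFa or PBS. The genes were taken by name from the table of gene counts: Nmur1, the receptor for neuromedin U; Calcrl, Ramp1 and Ramp3, which build the receptors for the calcitonin gene-related peptide (CGRP) and its relative adrenomedullin; Calca, the gene of CGRP itself; and Vipr1 and Vipr2, the receptors for vasoactive intestinal peptide (VIP). All 7 of the 7 named genes had a row among the 21825 genes listed, and 6 passed the filter on low counts, Vipr1 being the exception. None of the 7 is an adrenergic receptor, so for adrenaline only the receptors of a wider list were counted.

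The TNFa group held 3 libraries, replicates 4 to 6, of ILC2s that were cultured for 48 h with 40 ng/mL recombinant mouse TNFa. The PBS group held 3 libraries, replicates 1 to 3, cultured for the same time with PBS in its place. All cultures also contained IL-2 and IL-7 at 10 ng/mL each, and all cells were sorted lung ILC2s of BALB/c mice, 6 weeks of age, after 3 intraperitoneal injections of IL-33 (1 µg per injection). PBS thus stands for IL-33-exposed and cytokine-fed cells without added TNFa, not for untouched ILC2s. The labels name neither the markers used for sorting nor whether libraries came from separate mice or cultures, so the p-values reflect only how these libraries spread, which may be technical.

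Libraries held 25089415 to 32487004 counts with TNFa and 29185442 to 30908757 with PBS. TNFa replicate 5 stood apart, scoring 90.4 on the first principal component, which held 35.6% of the variance and on which the rest scored from -22.6 to -14.5, and PBS replicate 2 is labelled a repeat. Markers of ILC2s summed to 10122 to 11139 CPM (counts scaled to the size of each library by the TMM method) with TNFa and 9251 to 10485 CPM with PBS. The most abundant of the 12 were Il5, at 5442 ± 308 and 4520 ± 448 CPM, and Il2ra, the IL-2 receptor alpha chain, at 2228 ± 155 and 1841 ± 216 CPM with TNFa and with PBS (mean ± SD, n = 3 each). Mast cell markers were present at 1267 to 1446 CPM in sum with TNFa and 1189 to 1352 CPM with PBS, led by the proteases Tpsab1 (763 ± 53.5 and 703 ± 66.0 CPM) and Cma1 (226 ± 16.5 and 218 ± 28.5 CPM).

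Neuromedin U released by cholinergic neurons acts on NMUR1, a receptor that couples mainly to Gq and calcium, and is known as a rapid activator of ILC2s in gut and lung. CGRP and VIP act through receptors that couple mainly to Gs and raise cAMP. CGRP needs a pair of proteins: CALCRL, the seven-transmembrane core, and RAMP1, a single-pass partner that sets its preference for CGRP, whereas RAMP2 or RAMP3 turn the same core towards adrenomedullin. Mouse lung ILC2s are known to respond to CGRP and to make it themselves.

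Promoters are shown here for the 2 genes whose groups did not overlap, Nmur1 and Ramp1, and for Ramp3, the only gene of the 7 whose window held a match to the NF-kB (kB) motif. Each window runs from 250 bases before to 50 bases after the annotated start, 5′ to 3′ on the gene's strand (RefSeq, GRCm38.p6). For Nmur1 it is the first of 2 RefSeq starts, chr1:86389312-86389611 on the minus strand, for Ramp1 chr1:91179572-91179871 on the plus strand and for Ramp3 chr11:6658283-6658582 on the plus strand. Capitals mark matches to any of 4 motifs, searched on both strands: the kB motif, the core of the cAMP response element (TGACG), the AP-1 motif (TGANTCA) and the GATA motif (AGATAA).
Nmur1: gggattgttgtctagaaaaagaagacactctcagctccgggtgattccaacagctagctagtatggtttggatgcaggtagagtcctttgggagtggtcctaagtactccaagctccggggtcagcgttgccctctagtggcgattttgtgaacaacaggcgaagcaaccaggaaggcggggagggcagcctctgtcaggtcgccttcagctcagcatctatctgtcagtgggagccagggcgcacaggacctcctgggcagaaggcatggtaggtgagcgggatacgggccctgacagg
Ramp1: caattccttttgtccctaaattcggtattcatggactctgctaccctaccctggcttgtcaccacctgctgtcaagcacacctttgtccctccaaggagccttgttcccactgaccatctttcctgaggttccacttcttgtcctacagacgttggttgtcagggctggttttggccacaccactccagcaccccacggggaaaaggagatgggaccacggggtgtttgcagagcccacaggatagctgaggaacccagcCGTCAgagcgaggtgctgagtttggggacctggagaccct
Ramp3: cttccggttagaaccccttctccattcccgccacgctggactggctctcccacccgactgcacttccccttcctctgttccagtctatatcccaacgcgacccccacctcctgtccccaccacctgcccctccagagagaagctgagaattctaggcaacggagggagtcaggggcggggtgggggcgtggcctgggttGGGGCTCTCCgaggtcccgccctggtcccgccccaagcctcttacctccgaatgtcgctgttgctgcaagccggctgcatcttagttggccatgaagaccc
The Ramp1 match is a cAMP response element core on the opposite strand, just past the start, and the Ramp3 match is the kB motif on the gene's strand, its first base 51 bases before the start. No match to these letters stood in either Nmur1 window, and both lie inside the deposited Nmur1 record, which reaches further upstream. Calca and Vipr1 each held a cAMP response element core, Calca a GATA motif as well, and Calcrl and Vipr2 held none of the 4. Of 32851 RefSeq promoter windows of the same length, 5.80% held the kB motif, 20.8% the cAMP response element core, 7.81% the AP-1 motif and 11.2% the GATA motif, so these matches are a description of the windows only.

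Levels of different genes can be compared once divided by transcript length, here as CPM per kb of exon. On that scale Ramp1 and Nmur1 stood highest of the 7. Ramp1 averaged 119 CPM per kb over the 6 libraries, with a range of 100.3 to 145, and Nmur1 averaged 109, with a range of 67.7 to 141, so these neighbours did not differ beyond the spread between libraries. Their mean levels were above those of 96.4% and 96.1% of all tested genes. Calcrl followed at 21.9 CPM per kb (15.4 to 27.8) and Calca at 9.13 (6.00 to 12), each with a range clear of its neighbours. Vipr2, at 3.98 CPM per kb (1.93 to 5.08), and Ramp3, at 2.05 (1.58 to 2.75), overlapped. Vipr1 came last at 0.0187 CPM per kb. The length used for a gene matters to this scale. With its longest transcript in place of all its exons, Calca averaged 15.5 CPM per kb. That mean lies within the Calcrl range of 15.4 to 27.8, which is the same with either length. The separation of Calca from Calcrl thus holds only per kb of all exons.

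**Figure D1:**
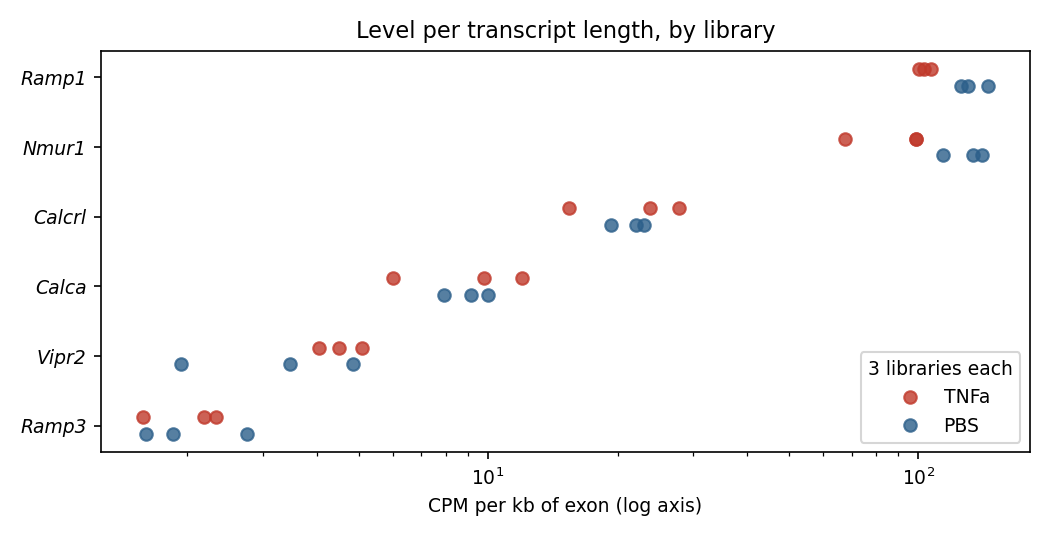
CPM per kb of exon (log axis) of the 6 tested genes, one point per library, TNFa above PBS within each gene. Ramp1 and Nmur1 lie between 67.7 and 145, Calcrl between 15.4 and 27.8, and Vipr2 and Ramp3 overlap at the low end; Vipr1, with 2 libraries at 0, is not drawn.

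No member passed the test for a difference between TNFa and PBS: 0 of the 6 tested fell under the threshold of 0.05 for p adjusted by Benjamini-Hochberg over all 15719 tested genes (quasi-likelihood test of edgeR), which 0.102% of all genes did. DESeq2 also called 0 of them, against 1.74% of the genes it gave an adjusted p. At an unadjusted p under 0.05 stood 2 members, both lower with TNFa (Ramp1 and Nmur1), against 8.31% of all tested genes in either direction and 4.63% lower. These were also the only members whose 3 TNFa libraries all lay below the 3 PBS libraries, as 8.35% of all tested genes did. Of the 6 tested, 3 had a log2 fold change below 0 and 3 above, with a median of 0.01 beside 0.00 over all tested genes.

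**Figure D2:**
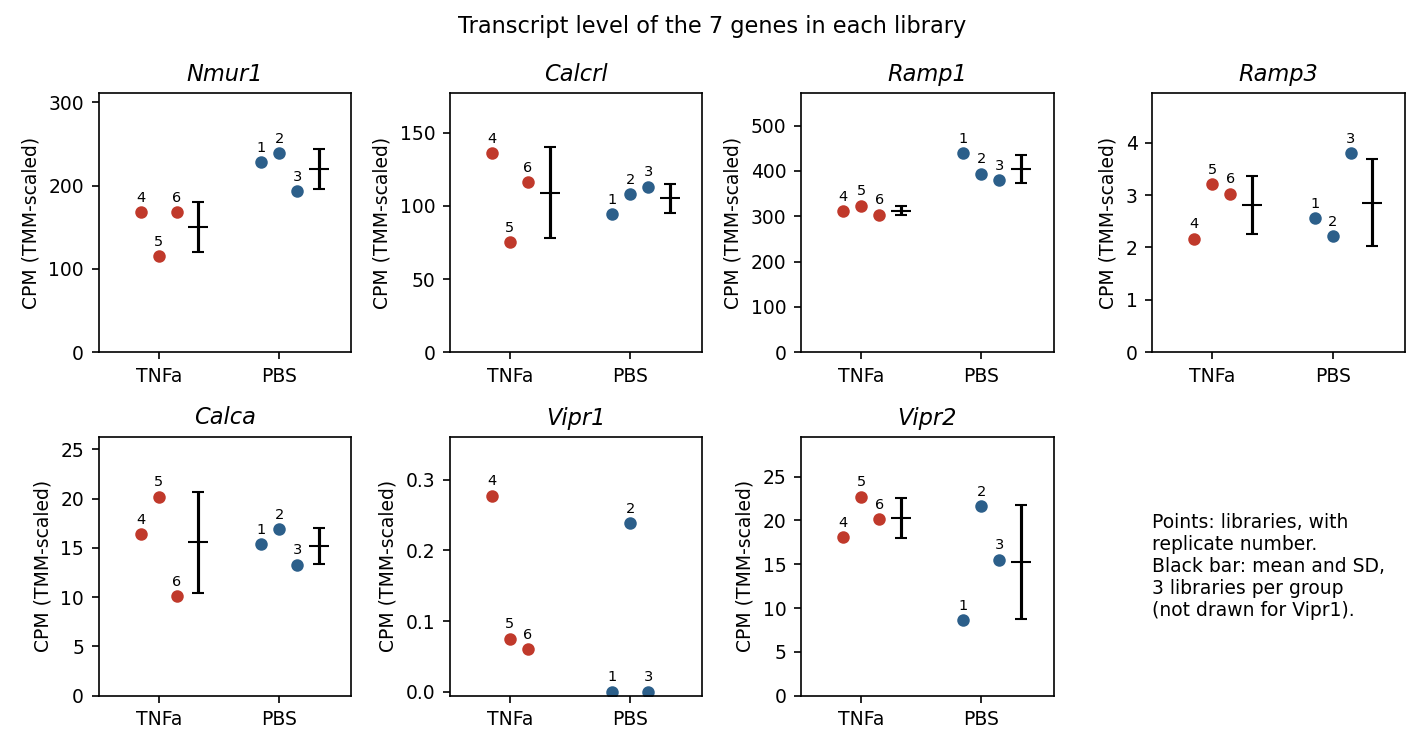
CPM (TMM-scaled) of the 7 genes in each library, TNFa left and PBS right in each panel, with replicate numbers above the points and the mean and SD of 3 libraries in black. In Nmur1 and Ramp1 every TNFa point lies below every PBS point (for Ramp1 303 to 323 against 379 to 439 CPM), and in the other 5 panels the groups overlap.

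Nmur1, the neuromedin U receptor (mm10 chromosome 1, 86386303 to 86426228, minus strand), had 168, 115 and 168 CPM in TNFa replicates 4, 5 and 6, against 228, 239 and 193 CPM in PBS replicates 1, 2 and 3. The lowest TNFa value was that of replicate 5, the library that stood apart, and the other TNFa libraries still lay below the lowest PBS library. The mean was 150.1 ± 30.6 CPM with TNFa and 219.7 ± 24.2 CPM with PBS (SD, n = 3 each), a 0.68-fold ratio with a 95% interval of 0.53 to 0.87. The log2 fold change of -0.55 ± 0.16 (SE) gave an unadjusted p of 0.00629 and an adjusted p of 0.36 (edgeR). DESeq2 gave -0.54 and an adjusted p of 0.076. Without TNFa replicate 5 the log2 fold change was -0.39 ± 0.11 (edgeR adjusted p = 0.18). The depth of 3072 to 7021 counts per library leaves little counting error, so the spread between libraries limits this comparison.

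Calcrl (chromosome 2, 84330626 to 84425411, minus strand), the shared core of the CGRP and adrenomedullin receptors, had 136, 75.1 and 116 CPM in TNFa replicates 4, 5 and 6, against 94.2, 108 and 113 CPM in PBS replicates 1, 2 and 3. The highest and the lowest of all libraries were TNFa libraries, and the groups overlapped. The log2 fold change was 0.05 ± 0.19 (SE; edgeR adjusted p = 0.96), with an interval from 0.77-fold to 1.40-fold. Without replicate 5 it was 0.26 ± 0.11, at an unadjusted p of 0.0416 and an adjusted p of 0.45. Without TNFa replicate 4 it was -0.14 ± 0.19, so the sign depended on which library was used. Calcrl is abundant in endothelium, and the endothelial list summed to 82.5 to 149.8 CPM with TNFa and 83.8 to 124 CPM with PBS. Of that list's 9 genes 4 (Cdh5, Kdr, Tek and Emcn) had no row in the table used here, Cldn5 was at no more than 0.411 CPM, and nearly all of the sum was Pecam1 (108 ± 34.9 and 94.7 ± 20.8 CPM), which leukocytes also express. The second was Egfl7, at 2.91 ± 0.905 and 3.46 ± 0.346 CPM. Whether endothelial cells gave part of the Calcrl counts was not tested.

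Ramp1 (chromosome 1, 91179822 to 91225196, plus strand), the partner that makes Calcrl a CGRP receptor, had 311, 323 and 303 CPM in TNFa replicates 4, 5 and 6, against 439, 394 and 379 CPM in PBS replicates 1, 2 and 3. The TNFa libraries, replicate 5 among them, lay close together and below all PBS libraries. Means were 313 ± 10.1 CPM with TNFa and 404 ± 31.0 CPM with PBS, a 0.77-fold ratio with a 95% interval of 0.66 to 0.90. The log2 fold change of -0.37 ± 0.10 (SE) had an unadjusted p of 0.00389 and an adjusted p of 0.31 (edgeR), and DESeq2 gave -0.36 with an adjusted p of 0.060. Without TNFa replicate 5 it was -0.40 ± 0.09 (edgeR adjusted p = 0.12). In these bulk samples fewer cells with a transcript and less transcript per cell cannot be told apart.

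Of the marker lists 3 had sums that were lower with TNFa without group overlap, as Nmur1 and Ramp1 were: those of T cells, of NK cells and ILC1s, and of pulmonary neuroendocrine cells, the last given with Calca. Of all single tested genes 8.35% lay lower in this way. T cell markers summed to 297 to 342 CPM with TNFa and 352 to 381 CPM with PBS, led by Trbc2 (211 ± 22.7 and 242 ± 8.54 CPM) and Cd3g (41.2 ± 7.99 and 43.1 ± 3.26 CPM). Of its 8 genes 7 had a log2 fold change below 0. At an unadjusted p under 0.05 (edgeR) stood 1 of them, lower with TNFa, against 4.63% of all tested genes lower. The list of NK cells and ILC1s summed to 15.8 to 22.8 CPM with TNFa and 39.4 to 69.5 CPM with PBS, mostly through the granzyme gene Gzma (13.4 ± 5.93 and 50.4 ± 15 CPM), while Ncr1, an activating receptor of NK cells, stood higher with TNFa, at 2.98 ± 0.776 and 1.27 ± 0.475 CPM. The 12 ILC2 markers, all tested, went both ways, with a median log2 fold change of -0.05. At an unadjusted p under 0.05 (edgeR) stood 4 higher and 4 lower, against 8.31% of all tested genes in either direction. Higher with TNFa were Il5 (0.27), Il2ra (0.28), Areg (0.30) and Il13 (0.41), and lower were Gata3 (-0.47), Arg1 (-0.55), Il1rl1 (-0.54) and Klrg1 (-0.41), on the log2 scale. Sums of the endothelial, mast cell and remaining lists overlapped between the groups. B cell markers summed to 50.9 to 137 and 105 to 140.5 CPM (led by Ighm and Cd79b), myeloid markers to 15.5 to 55.4 and 41.4 to 99.0 CPM (Chil3 and Lyz2), lung epithelial markers to 38.9 to 111 and 37.0 to 51.3 CPM (Scgb1a1 and Epcam), with TNFa and with PBS, and markers of fibroblasts and smooth muscle (Acta2 and Myh11) to at most 1.23 CPM. In edgeR 0 genes of the marker lists passed the threshold, against 0.102% of all tested genes. DESeq2 called 5, all lower with TNFa, against 1.74% of the genes it gave an adjusted p. The 5 were 3 of 12 tested ILC2 markers, 1 of 6 lung epithelial markers and 1 of 4 markers of NK cells and ILC1s. They were Gata3 (adjusted p = 0.0083), the transcription factor of ILC2 identity, Arg1 (0.00013), Il1rl1 (0.0089), the IL-33 receptor, Epcam (8.5e-06) and Gzma (6.2e-07), with edgeR adjusted p of 0.088 to 0.22. Epcam went against its list, where 5 of the 6 tested genes had a log2 fold change above 0, with a median of 0.81. Whether the marker genes or their cell types had a part in the lower Nmur1 and Ramp1 levels was not tested.

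Ramp3 (chromosome 11, 6658521 to 6677475, plus strand) had 2.17, 3.21 and 3.03 CPM in TNFa replicates 4, 5 and 6, against 2.56, 2.21 and 3.8 CPM in PBS replicates 1, 2 and 3. The groups overlapped, and the log2 fold change was -0.03 ± 0.38 (edgeR adjusted p = 0.99). With 55 to 120 counts per library, the interval spanned 0.55-fold to 1.77-fold. Ramp3 shares 101 exonic bases with a pseudogene on the opposite strand, and whether counting used strand is not given in the sources used here. Ramp2, the third partner of Calcrl and no member, was lower still, at 1.08 ± 0.439 CPM with TNFa and 1.35 ± 0.401 CPM with PBS, and it shares 1103 exonic bases with its abundant neighbour Vps25, so its counts are uncertain.

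The balance of these partners favoured Ramp1 in every library. Ramp3 made up 1.51%, 2.13% and 2.14% of Ramp1 plus Ramp3, per kb, in TNFa replicates 4, 5 and 6, against 1.26%, 1.21% and 2.15% in PBS replicates 1, 2 and 3. The means were 1.93% ± 0.364 and 1.54% ± 0.526 (TNFa and PBS, SD, n = 3 each), a difference of 0.386 percentage points (exact permutation test, two-sided p = 0.4, with 0.1 the smallest p possible for 3 against 3). The Ramp1 level, per kb, was 3.71, 6.96 and 4.22 times that of Calcrl in TNFa replicates 4, 5 and 6, against 7.53, 5.90 and 5.43 times in PBS replicates 1, 2 and 3. That ratio was lowest in TNFa replicates 4 and 6, whereas replicate 5 lay within the PBS range. The Calcrl level in turn was 6.60 to 17.6 times that of Ramp3 with TNFa and 8.39 to 13.8 times with PBS.

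Calca (chromosome 7, 114631478 to 114636357, minus strand) encodes CGRP and, by alternative splicing, calcitonin, and a count per gene does not separate these products. It had 16.4, 20.2 and 10.1 CPM in TNFa replicates 4, 5 and 6, against 15.4, 16.9 and 13.3 CPM in PBS replicates 1, 2 and 3. The highest and lowest libraries were both TNFa libraries, 5 and 6. The log2 fold change was 0.04 ± 0.26 (edgeR adjusted p = 0.98), with an interval from 0.69-fold to 1.53-fold. It was -0.20 ± 0.24 without replicate 5 and 0.27 ± 0.22 without replicate 6. Pulmonary neuroendocrine cells are the other well-known source of CGRP in lung. Of 8 markers of those cells 3 had no row, and Chga and Scg5 averaged at most 0.231 CPM in either group. The list's sum, 10.9 to 14.5 CPM with TNFa and 16.5 to 18.5 CPM with PBS, came from Uchl1 (11.4 ± 1.11 and 15.1 ± 0.772 CPM), then Syp (1.36 ± 0.791 and 1.8 ± 0.281 CPM), neither of which is restricted to them. Whether neuroendocrine cells gave part of the Calca counts was not tested.

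Of the VIP receptors, Vipr2 (chromosome 12, 116077726 to 116146261, plus strand) was the more abundant form in every library. It had 18.1, 22.7 and 20.1 CPM in TNFa replicates 4, 5 and 6, against 8.62, 21.6 and 15.5 CPM in PBS replicates 1, 2 and 3. The TNFa libraries lay close together and the PBS libraries spread more widely, with PBS replicate 1 the lowest of all and PBS replicate 2 within the TNFa range. The log2 fold change was 0.41 ± 0.29 (edgeR adjusted p = 0.76), with an interval from 0.85-fold to 2.10-fold. It was 0.13 ± 0.22 without PBS replicate 1 and 0.75 ± 0.28 without PBS replicate 2 (unadjusted p = 0.0285, adjusted p = 0.95), so its size rested on the PBS libraries. An antisense gene within Vipr2, Gm20658, had 69.0 to 108 counts and shared no exonic base with it.

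Vipr1 (chromosome 9, 121642716 to 121672954, plus strand) had 7, 2 and 2 counts in TNFa replicates 4, 5 and 6, against 0, 7 and 0 counts in PBS replicates 1, 2 and 3. A count of 0 allows up to 0.0992 and 0.0971 CPM (3 counts) in PBS replicates 1 and 3, by counting error alone. It was not tested, since its counts were too low for the filter, and TNFa replicates 5 and 6 lay under the level that 3 counts give. Vipr2 accordingly made up 98.8%, 99.7% and 99.8% of Vipr1 plus Vipr2, per kb, in TNFa replicates 4, 5 and 6, against 100%, 99.2% and 100% in PBS replicates 1, 2 and 3 (difference -0.269 percentage points, exact permutation test, two-sided p = 0.5).

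**Figure D3:**
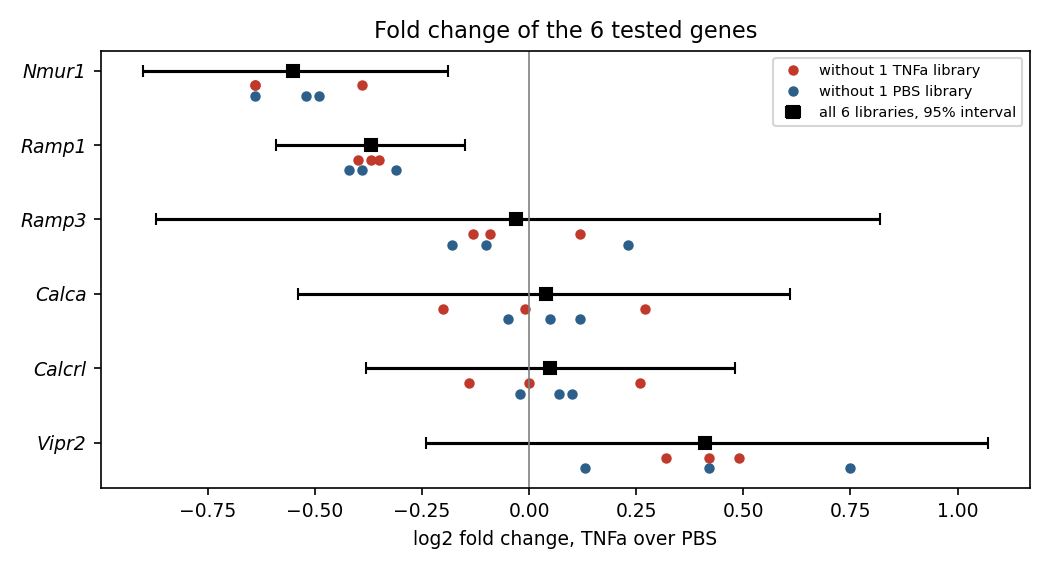
Log2 fold change, TNFa over PBS, of the 6 tested genes with its 95% interval (black squares) and, below each, the value without 1 TNFa library (red) or 1 PBS library (blue). Nmur1 stays between -0.64 and -0.39 and Ramp1 between -0.42 and -0.31, where groups without overlap fix the sign in advance. Points of Calcrl, Calca and Ramp3 lie on both sides of 0.

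The 6 tested genes did not share a common course over the 6 libraries. Nmur1 and Ramp1 had a Pearson correlation of log2 CPM of 0.74, Calcrl and Ramp1, the pair of the CGRP receptor, of -0.22, and Calca and Calcrl, ligand and receptor, of -0.51 (6 libraries each, which share the difference between groups and the 1 library that stood apart, so these are descriptions). Among the abundant genes (mean of at least 10 CPM), those most like Nmur1 were Fam102b, Nfkbiz and Tspan14, with correlations of 0.996, 0.992 and 0.990. Nfkbiz encodes a nuclear regulator of NF-kB and Tspan14 a tetraspanin. Those most like Ramp1 were AC154187.2, Skap1, an adaptor of lymphocyte adhesion, and Hmgn2, a nucleosome-binding protein, at 0.998, 0.993 and 0.992. For Calcrl they were Zfp954, Itfg2 and Cd164 at 0.996, 0.993 and 0.989, and for Calca Borcs7, Cln6 and Rpp40 at 0.988, 0.977 and 0.974. For Vipr2 they were Plagl2, Senp5 and D030028A08Rik at 0.963, 0.959 and 0.958, and for Ramp3 Gm10123, Chka and Chek2 at 0.977, 0.952 and 0.939. Each search ran over 8749 genes, or 8750 for Ramp3. Picked as the highest of so many over only 6 libraries, these correlations are descriptions too. No link between a member and these genes was tested.

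The rest of the pathway was counted in 8 lists of 145 genes, of which 98 had a row and 81 were tested. None of the 81 passed in edgeR, where 0.102% of all tested genes did, and 14 (17.3%) stood at an unadjusted p under 0.05, 3 higher and 11 lower with TNFa, against 8.31% of all tested genes. The groups did not overlap in 21 of the 81 (25.9%), against 15.2% of all tested genes, and the median log2 fold change was -0.15 beside 0.00. Members and lists were chosen with earlier results of these data known, so shares set beside those of all genes are descriptions. DESeq2 called 2, both lower with TNFa, against 1.74% of the genes it gave an adjusted p. These were Prkcq, protein kinase C theta (25.7 ± 4.70 CPM with TNFa and 42.6 ± 2.49 CPM with PBS, DESeq2 adjusted p = 0.0058, edgeR adjusted p = 0.22), named here after its values were seen, and Grk6, a kinase that desensitises receptors (163 ± 23.1 and 225 ± 7.10 CPM, DESeq2 adjusted p = 0.043, edgeR adjusted p = 0.30).

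Of 14 peptide ligand genes, 3 had a row and 2 were tested, with 0 called in either direction by edgeR or DESeq2. Penk, the precursor of enkephalins, was at 3.93 ± 2.32 CPM with TNFa and 1.16 ± 0.459 CPM with PBS (log2 fold change 1.75 ± 0.58, edgeR adjusted p = 0.43). Pomc stood at 0.750 ± 0.454 and 0.629 ± 0.197 CPM, and Adm, adrenomedullin, at 0.0730 ± 0.0959 and 0.127 ± 0.192 CPM. The genes of neuromedin U and VIP themselves, Nmu and Vip, had no row. Of 13 further receptors and accessory genes of the same families, 6 had a row, 4 were tested and 0 were called. Crcp, named as a component of the CGRP receptor, had the most CPM of these 6, at 46.1 ± 2.86 and 48.7 ± 6.53 with TNFa and with PBS. Its level alone does not give that of the receptor. Of the adrenergic receptors in this list, Adra1b was at 1.18 ± 0.482 CPM with TNFa and 0.408 ± 0.392 CPM with PBS (adjusted p = 0.74, edgeR). Adra2a, Adrb1 and Adrb3 averaged no more than 0.443 CPM in either group. Of 33 receptors for other neural signals 11 had a row and 5 were tested, again with 0 called. Htr1b, a serotonin receptor, was the most abundant at 25.8 ± 4.63 and 31.7 ± 4.17 CPM, followed by Htr2a (2.04 ± 1.27 and 1.29 ± 1.33 CPM) and Ret, a neurotrophic factor receptor (1.08 ± 0.846 and 1.54 ± 0.947 CPM).

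Downstream of Nmur1, 19 of 20 genes of the Gq arm were tested, with 0 called by edgeR and 1, Prkcq, by DESeq2, and with 13 below and 6 above 0 and a median log2 fold change of -0.25. Its most abundant members were the calcium channel genes Itpr2 (148 ± 15.8 CPM with TNFa and 176 ± 19.8 CPM with PBS) and Itpr1 (99.3 ± 9.41 and 83.6 ± 2.53 CPM) and the calcineurin subunit Ppp3r1 (126 ± 5.72 and 117 ± 5.95 CPM). Downstream of the CGRP and VIP receptors, 16 of 23 genes of the Gs and cAMP arm were tested and 0 called, 11 below and 5 above 0 with a median of -0.18. Prkar1a, the regulatory subunit of protein kinase A, was at 731 ± 19.7 and 813 ± 31.2 CPM, Gnas, the Gs alpha subunit, at 179.6 ± 19.4 and 199 ± 23.2 CPM, and the adenylyl cyclase Adcy7 at 158 ± 16.1 and 200.3 ± 8.45 CPM (log2 fold change -0.34 ± 0.11, adjusted p = 0.42, edgeR). The 13 tested phosphodiesterases, which break down cAMP, had a median of -0.11 with 0 called, led by Pde3b (67.7 ± 15.3 and 71.0 ± 8.34 CPM), Pde7a (48.1 ± 11.5 and 38.8 ± 6.04 CPM) and Pde4b (24.5 ± 4.91 and 20.4 ± 2.72 CPM).

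Of 15 genes that desensitise receptors 13 had a log2 fold change below 0, with a median of -0.26, 0 called by edgeR and 1, Grk6, by DESeq2. Rgs1, which speeds G protein shut-off, was the most abundant at 576 ± 65.6 CPM with TNFa and 602 ± 84.1 CPM with PBS, followed by the receptor kinase Grk2 at 320.1 ± 26.5 and 364 ± 40.2 CPM. Of 7 tested genes that cAMP is known to induce, 4 were above and 3 below 0 with a median of 0.01 and 0 called. Gem was at 36.1 ± 4.27 and 29.0 ± 2.84 CPM, Dusp1 at 24.6 ± 4.19 and 23.7 ± 3.36 CPM, and Fos at 12.5 ± 1.74 and 15.8 ± 1.25 CPM, with TNFa and with PBS.

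**Figure D4:**
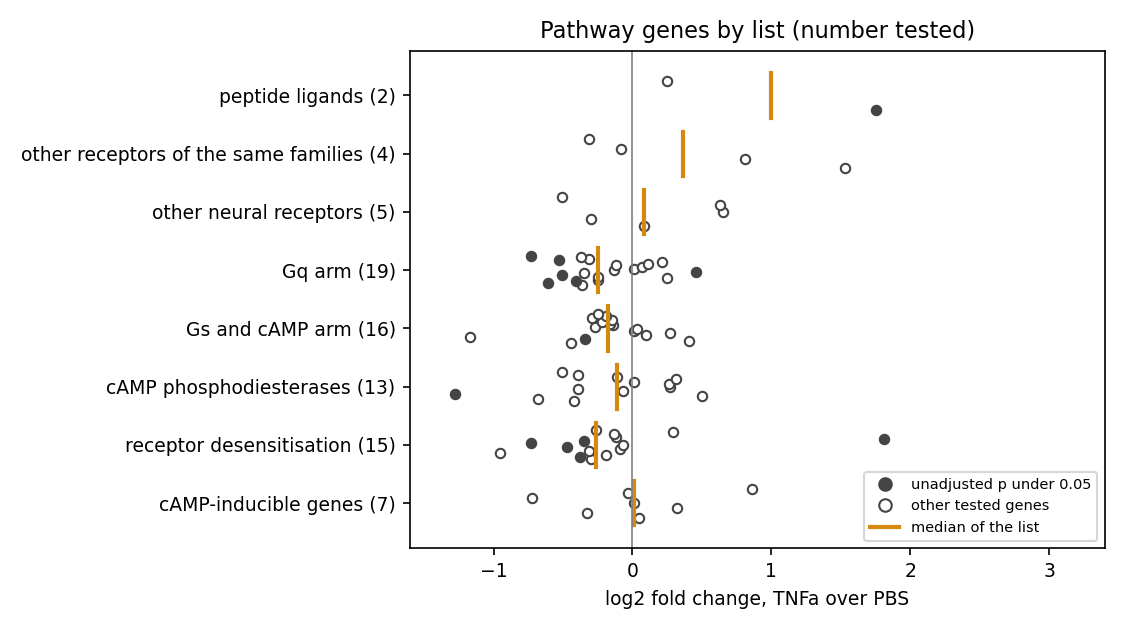
Log2 fold change, TNFa over PBS, of the tested genes of 8 pathway lists, one point per gene, filled where the unadjusted p is under 0.05, with the list median in orange. The medians of the Gq arm (-0.25), the Gs and cAMP arm (-0.18) and receptor desensitisation (-0.26) lie below 0, and no gene shown passed in edgeR after adjustment over all genes, while DESeq2 called Prkcq and Grk6.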

How the data were processed

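RNA of 6 samples of cultured, sorted mouse lung ILC2s, 3 with TNFa and 3 with PBS, was profiled by RNA sequencing from 10 ng of total RNA each. The authors deposited estimated counts per gene from Partek's expectation-maximization quantification, per the file headers, not scaled between libraries. The submitters' processing notes list CASAVA 1.8.2, STAR, Partek and the build mm10. For the annotation, the gene filter and the strand setting, the method was not given in the sources used here. This table held 21825 genes with a total of at least 10, and 0 further value columns.

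Counts were rounded and fitted in R 4.3.3 with edgeR 4.0.16: filterByExpr (minimum count 10, minimum total 15), TMM scaling, robust quasi-likelihood test, Benjamini-Hochberg adjustment over all 15719 tested genes, threshold 0.05. DESeq2 1.42.0, RLE scaling, other filters and leaving out each library were alternatives. The fit was tested on simulated data. SEs follow from the fold change and its F statistic. Exact permutation tests used scipy 1.17.1. Exon lengths, identifiers and overlapping genes came from GENCODE M21, which matched 21681 genes and has the same build. Promoters came from RefSeq.

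The members and lists were chosen with earlier results of these data known. Named genes were all members, called list genes, the 3 most abundant of each pathway list, the 2 most abundant of each marker list, and for each tested member the 3 genes with the highest correlation of log2 CPM (prior count 2). Chosen after their values were seen were the further genes named: Prkcq, the ILC2 markers named for their fold change or a DESeq2 call, Cldn5, Chga, Scg5, Adra2a, Adrb1 and Adrb3. The table's end position is 1 base past the last base, and coordinates here are 1-based. Totals of 25089415 to 32487004 counts per library make counting error small for the members except Vipr1 and Ramp3. It is larger for these, for Ramp2 and for list genes at similarly low CPM. Reads of genes that overlap another gene are uncertain.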

Additional observations from a re-analysis of the deposited data

How the results depend on the processing

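No member passed the threshold under any of the 10 alternatives (DESeq2, RLE scaling, no low-count filter, a filter at 1 CPM in at least 3 libraries, and leaving out each of the 6 libraries). Nmur1, Ramp1 and Vipr2 kept their direction in all 10, with log2 fold changes of -0.64 to -0.39, -0.42 to -0.31 and 0.13 to 0.75. For Nmur1 and Ramp1, leaving out a library could not turn the direction, since their groups do not overlap. Their constant sign there is thus no separate evidence. The edgeR or DESeq2 adjusted p ranged from 0.0761 to 0.954 for Nmur1 and from 0.0604 to 0.904 for Ramp1, lowest with DESeq2 in each case. The other 3 turned with single libraries left out: Calcrl ranged from -0.14 to 0.26, Ramp3 from -0.18 to 0.23 and Calca from -0.20 to 0.27, and their fold changes with all libraries were near 0. Calcrl was below 0 without TNFa replicate 4 (-0.14) or PBS replicate 1 (-0.02), Ramp3 above 0 without TNFa replicate 4 (0.12) or PBS replicate 3 (0.23), and Calca below 0 without TNFa replicates 4 (-0.01) or 5 (-0.20) or PBS replicate 3 (-0.05). Vipr1 could be fitted only without the filter, at 0.75 (adjusted p = 0.962). The count over all genes was 16, against 220 with DESeq2, 3 without the filter and 1 to 67 with a library left out (67 without TNFa replicate 5, the others 1 to 5), where the test also has fewer libraries. DESeq2 called 2 pathway genes and 5 marker genes where edgeR called 0 of either; the cause was not tested. The Vipr2 share differed by -0.550 to 0.0385 percentage points with a library left out (0.0385 without TNFa replicate 4, which held 7 of the 11 Vipr1 counts with TNFa), and the Ramp3 share by 0.223 to 0.689. Per kb of the longest transcript Ramp1 stood at 154, Calca at 15.5 and Vipr2 at 5.25 CPM, since that length is shorter. No paired analysis was possible because the replicate numbers, 4 to 6 with TNFa and 1 to 3 with PBS, are not shared between the groups.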
